A study of Mus musculus with 71 samples.

Results

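The RNA exosome is the main 3′-to-5′ RNA degradation machine of the cell, and its subunits are encoded by Exosc1 to Exosc10. These 10 genes were taken by name from the 21527 genes of the deposited tables, and 9 of them had a row. Exosc6 was not analysed here. The cells were male mouse embryonic stem cells (mESCs) grown in 2i/LIF medium, in which kinase inhibitors and the cytokine LIF keep the cells in a naive, self-renewing state. All labelled cultures received 100 µM 4-thiouridine (s4U), a uridine analogue that is built into new RNA, for 24 h. The label was then chased with an excess of uridine. STM2457, a small-molecule inhibitor of the N6-methyladenosine (m6A) methyltransferase Mettl3, or its solvent DMSO as the control, was added 6 h before the chase and kept throughout it. Samples were taken at the time points T0 to T7, which are 0, 1, 1.5, 2.3, 3.5, 5.3, 8 and 12 h of chase, so that STM2457 had acted for 6 h at T0 and for 18 h at T7. Each of the 18 groups (both treatments at 8 time points and without s4U) had 4 libraries, apart from STM2457 at T4 with 3. For the libraries without s4U the labels do not give how long STM2457 had acted. The study's methods call its replicates biologically independent, whereas the labels only number them, and the p-values measure the spread between these libraries.

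The core of the exosome is a barrel. Its ring is formed by Exosc4 to Exosc9, which resemble bacterial RNase PH but have lost its catalytic activity. A cap of the RNA-binding proteins Exosc1, Exosc2 and Exosc3 sits on top and receives the RNA. Exosc10 (Rrp6) is a 3′ exonuclease that joins the nuclear complex, and Dis3 or the cytoplasmic Dis3l provides the processive nuclease at the other end of the channel. The complex trims ribosomal and small nucleolar RNA precursors, removes faulty nuclear transcripts and degrades mRNA in the cytoplasm, where it takes over after the poly(A) tail has been removed.

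Mettl3 methylates the adenosine of a GGAC core, mostly where the base that follows is not a G. Methylated sites are dense near the stop codon and in 3′ UTRs. m6A itself was not measured in these files. To show where such motifs lie in the subunits with the largest opposite differences between treatments, the core with any next base other than G was searched on the sense strand alone of the annotated transcript with the longest coding sequence of each gene (GENCODE M21, GRCm38). The 3′ UTR of Exosc4 (gene at chr15:76327397-76330677, plus strand), of 962 bases, held 4 of its 11 motifs, all in exon 3. The 3′ UTR of Exosc10 (chr4:148558429-148582401, plus strand), of 87 bases, held 1 of its 18 motifs, in exon 25. Per kb of 3′ UTR these were 4.16 motifs for Exosc4 and 11.5 for Exosc10. In the lines that follow, each 21-base site is read 5′ to 3′ on the plus strand, with the motif in capitals.
Exosc4, chr15:76329952-76329972: ttaagcttGGACCtcagactc
Exosc4, chr15:76330342-76330362: ttcttcttGGACTtgtcggtg
Exosc4, chr15:76330384-76330404: caaaccggGGACCaacaaact
Exosc4, chr15:76330498-76330518: cccatcagGGACAggagcaca
Exosc10, chr4:148582315-148582335: tgctggagGGACTcctggggc

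Over the whole transcript, Exosc4 had 6.12 motifs per kb and Exosc10 had 6.45, above 90.1% and 92.5% of the 12197 tested genes with an annotated transcript, whose median was 3.72. Both transcripts were rich in the motif by this measure. They were chosen for their opposite differences in read count, described further on, and a relation of motif density to these differences was not tested. The other measured subunits lay above 1.89% (Exosc1) to 70.1% (Exosc3) of these genes. Exosc3, Exosc7, Exosc8 and Exosc9 had no motif in the 3′ UTR, where 80.3% of the tested genes had at least 1. Their annotated 3′ UTRs held only 214, 126, 100 and 220 bases. The median density in the 3′ UTRs of the tested genes was 2.57 motifs per kb, so that few or no motifs would be found in such lengths. The windows in which their reads were counted were longer, at 306, 251, 256 and 331 bases. For Exosc10 the window was also longer than the 3′ UTR searched, at 257 bases, and for Exosc4 it was shorter, at 507 bases. The positions of the windows are not given, so motifs were not placed in them. Exosc1 had a single motif in its transcript, at 0.982 per kb the lowest density among the subunits. A match describes the letters of the transcript and does not show that a site was methylated.

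Libraries held 4539726 to 7368244 reads (median 5726508), counted in 3′ UTR windows. Levels are given as CPM, the reads of a gene scaled to a library total of 1000000, and tested differences come from the counts scaled by edgeR's trimmed mean of M-values (TMM), so that they can depart a little from ratios of CPM. The cells carried embryonic stem cell markers: 7 of 7 measured genes of the list (Pou5f1, Nanog and others) had a median of 1 CPM or more over the libraries, although Klf4 was at 0 in 3 of them, and their summed level was 3291 to 4696 CPM in DMSO and 3597 to 4525 CPM in STM2457. The lists for primitive endoderm, mesoderm with neuroectoderm, and fibroblast feeders summed to at most 12.8, 74.5 and 23.2 CPM. Of the mesoderm with neuroectoderm list only 2 of 4 genes had a row, T and Mesp1, so that no neuroectoderm gene was measured. T alone reached 74.5 CPM, with a median of 14.8 CPM over the libraries. All 9 subunits passed the filter on low counts. Exosc3 was covered most thinly, with 96 to 403 reads per library, and Exosc8 had 729 to 1967. Of the reads of Exosc2, 72.4% mapped to more than 1 place in the genome, against less than 1% for every other subunit, so the level of Exosc2 is uncertain. Annotated genes on the opposite strand overlap Exosc2, Exosc3, Exosc4, Exosc5, Exosc9 and Exosc10, and Supt20 on the opposite strand overlaps Exosc8. Exosc3 is also overlapped by Gm12585 on its own strand. Whether these overlaps reach the counted windows was not determined. How the counting treated strand is not given in the sources used here. Since these are bulk samples, less RNA per cell and fewer cells with that RNA cannot be told apart.

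**Figure D1:**
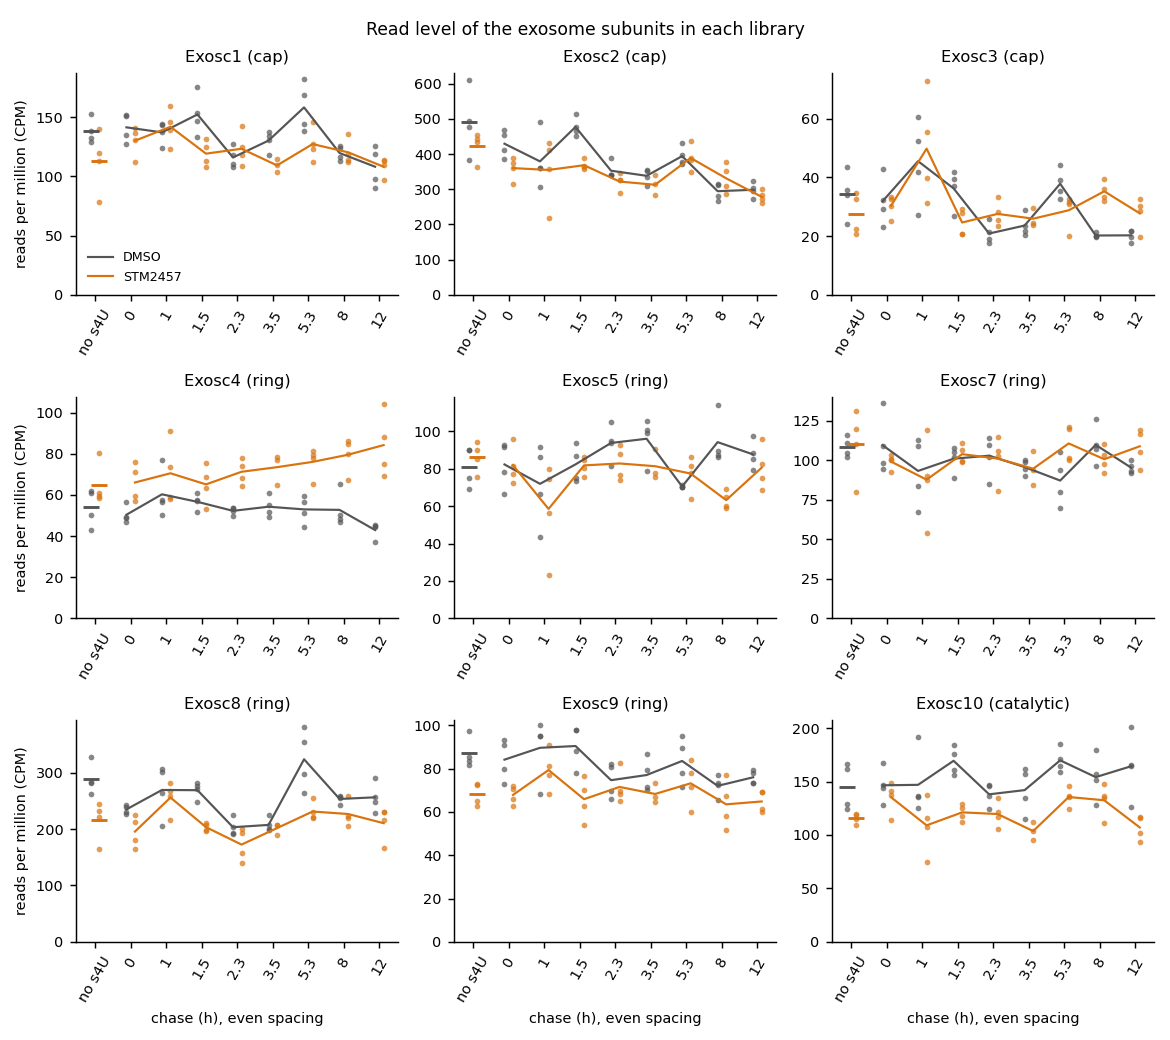
Level of each measured exosome subunit in every library. The vertical axis is CPM from 0, the horizontal axis the condition (no s4U, then hours of chase, evenly spaced). Points are libraries, lines and dashes are group means, DMSO in grey and STM2457 in orange. The 4 STM2457 libraries of Exosc4 at 12 h lie between 69.1 and 104 CPM, above the DMSO libraries at 37.0 to 45.4 CPM.

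The first question was whether the subunits as a group had other levels in m6A-depleted cells. They did not move together: averaged over T0 to T7, 1 subunit rose in STM2457 and 3 fell at an adjusted p under 0.01 (edgeR quasi-likelihood test, Benjamini-Hochberg over all genes). Across all 12659 genes tested, 26.5% passed the same threshold, 13.9% as higher and 12.6% as lower. Whether 4 of 9 subunits differs from that background was not tested. The median difference of the 9 subunits was -0.10 on the log2 scale, against -0.01 over all tested genes. Exosc4 of the ring was the subunit that rose, by 0.49 ± 0.05 (log2, SE; 1.40-fold, adjusted p = 2.3e-13). Exosc10, the nuclear exonuclease, fell by 0.34 ± 0.05 on the log2 scale, to 0.790 of its DMSO level (adjusted p = 7.0e-09).

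Of the cap subunits, none passed the threshold in this average. The RNA-binding cap proteins Exosc1 and Exosc2 had differences of -0.10 ± 0.04 (adjusted p = 0.056) and -0.10 ± 0.04 (adjusted p = 0.077). Exosc3, the cap subunit at which mutations cause pontocerebellar hypoplasia in people, had a difference of 0.13 ± 0.07 (adjusted p = 0.17). For Exosc3 this value depended on the time points: without T2 and T5, the time points other than T7 at which most genes differed between treatments, the difference was 0.31 and its adjusted p was 0.0025. At T2 and T5 themselves, Exosc3 had differences of -0.51 ± 0.20 and -0.36 ± 0.20.

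Within the ring, differences lay on both sides of 0. Beside Exosc4, which rose, Exosc8 fell by 0.23 ± 0.04 on the log2 scale (adjusted p = 7.4e-06) and Exosc9 fell by 0.21 ± 0.04 (adjusted p = 7.2e-05). Exosc5 and Exosc7 did not pass the threshold, with differences of -0.15 ± 0.06 (adjusted p = 0.063) and 0.04 ± 0.05 (adjusted p = 0.62). These 4 subunits were called in each of the alternative settings tried. The average without T2 and T5, in which 18.8% of all genes were called, added Exosc3.

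**Figure D2:**
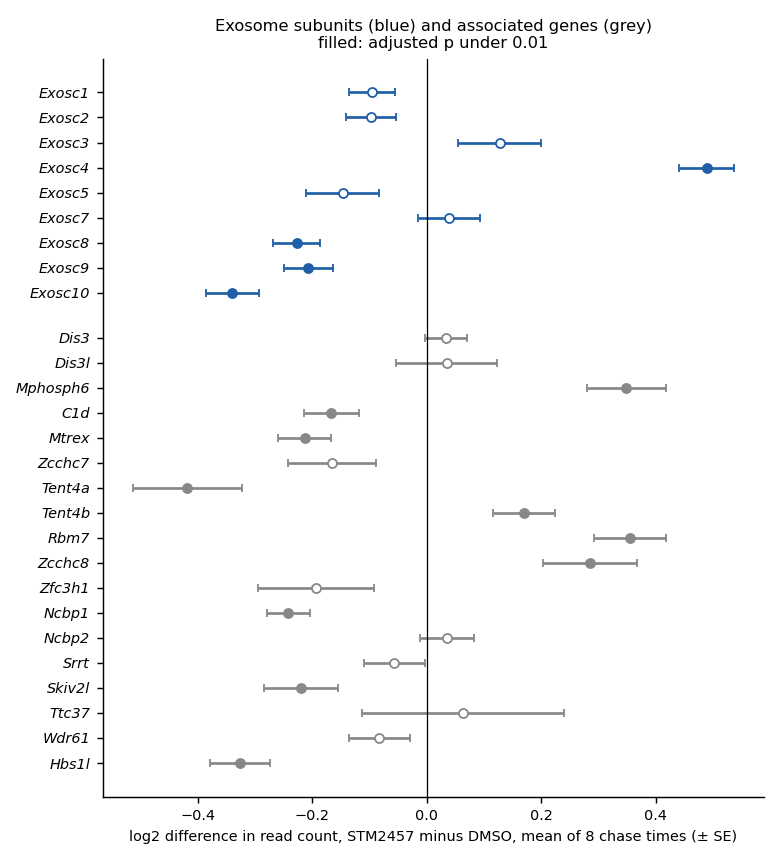
Log2 difference in read count, STM2457 minus DMSO, averaged over the 8 chase times, for the exosome subunits (blue) and the exosome-associated genes (grey). Points are edgeR estimates, bars 1 SE, and filled points have an adjusted p under 0.01. Exosc4 lies at 0.49 and Exosc10 at -0.34, on opposite sides of 0.

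Exosc4 was higher in STM2457 in each of the 9 conditions, by 0.21 to 1.01 on the log2 scale. At T0 the DMSO libraries had 49.3, 48.6, 46.9 and 56.7 CPM of Exosc4, and the STM2457 libraries had 57.1, 76.2, 71.3 and 59.6 CPM. At T7 they had 45.4, 44.6, 44.7 and 37.0 CPM in DMSO, and 104, 69.1, 75.1 and 88.3 CPM in STM2457. The groups did not overlap at either time point, and the gap was wider at T7, where DMSO was low and STM2457 high. The difference was 0.41 ± 0.14 at T0 (adjusted p = 0.076) and 1.01 ± 0.14 at T7 (2.01-fold, adjusted p = 6.5e-08). Exosc4 also passed the threshold at T5 (0.55 ± 0.14, adjusted p = 0.0044) and T6 (0.61 ± 0.14, adjusted p = 0.0021). The T7 call was made in each alternative setting, whereas the calls at T5 and T6 were each lost in several fits with 1 replicate left out (replicate 2 or 3 of DMSO or 1, 3 or 4 of STM2457 at T5, and replicate 1, 2 or 4 of DMSO or 2 or 3 of STM2457 at T6). In those fits the difference stayed between 0.48 and 0.59. The call at T5 was also lost when only the T5 libraries were fitted (0.54, adjusted p = 0.025).

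The widening over the chase was tested as a slope of the difference between treatments on chase time, a contrast chosen after the values had been seen. Exosc4 was the single subunit called, with a slope of 0.06 ± 0.01 log2 units per h (adjusted p = 0.0013), where 3.42% of all genes were called. Without replicate 4 of DMSO or replicate 1 of STM2457 the adjusted p was 0.013 and 0.017, above the threshold, at slopes of 0.05. The slope of Exosc3 was of the same size, 0.06 ± 0.02, with an adjusted p of 0.038. For Exosc10 it was -0.02 ± 0.01 (adjusted p = 0.47), so that a widening of its difference was not detected. Comparing only T7 minus T0 between treatments, no subunit passed the threshold, 1.11% of all genes did, and Exosc4 had a difference of 0.60 ± 0.19 (adjusted p = 0.084). At an unadjusted p under 0.05 this comparison held 2 of the 9 subunits, Exosc4 and Exosc10, and 1799 of the 12659 genes tested.

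As a share of the reads of the 8 subunits other than Exosc2, Exosc4 made up 4.57 to 7.61% (median 5.71%) in the 36 DMSO libraries and 6.79 to 13.3% (median 9.01%) in the 35 STM2457 libraries. The ranges of this share overlapped only between 6.79 and 7.61%. For Exosc10 the share was 13.5 to 21.6% (median 17.2%) in DMSO and 9.89 to 18.01% (median 15.0%) in STM2457, with wide overlap. The mixture of exosome transcripts thus held relatively more Exosc4 and less Exosc10 in STM2457.

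Exosc10 was lower in STM2457 in all 9 conditions, by 0.09 to 0.58 on the log2 scale. The difference was small at T0, where DMSO libraries had 146, 167, 128 and 144 CPM and STM2457 libraries 141, 149, 137 and 114 CPM, and these values overlapped. At T7 the DMSO libraries had 201, 126, 165 and 164 CPM, and the STM2457 libraries had 117, 102, 93.6 and 115 CPM. At T7 no STM2457 library reached the lowest DMSO library, and the difference of -0.58 ± 0.13 (adjusted p = 0.00097) passed the threshold. That call was lost without replicate 1 of DMSO (-0.47) and without replicate 3 of STM2457 (-0.51).

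Exosc8 and Exosc9 were also lower in all 9 conditions, by 0.03 to 0.45 and by 0.07 to 0.41 on the log2 scale. Exosc8 passed the threshold at T5, with 263, 297, 354 and 381 CPM in DMSO and 231, 254, 219 and 221 CPM in STM2457 (-0.45 ± 0.12, adjusted p = 0.0061). For Exosc8 in DMSO, T5 had the highest group mean of the labelled time points, 324 CPM. The T5 call was lost when replicate 3 or 4 of DMSO or replicate 2, 3 or 4 of STM2457 was left out (-0.51 to -0.36), and when only the T5 libraries were fitted (-0.46). Exosc9 passed it at no single condition. At T2, where its difference of -0.41 ± 0.12 was the largest (adjusted p = 0.012), Exosc9 had 97.6, 88.1, 78.1 and 97.9 CPM in DMSO and 76.7, 53.8, 62.8 and 70.2 CPM in STM2457, and these ranges did not overlap.

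Exosc3 passed the threshold at T6 alone. Its libraries there had 19.6, 20.2, 21.3 and 19.9 CPM in DMSO and 39.5, 32.1, 36.1 and 33.3 CPM in STM2457, a difference of 0.81 ± 0.20 (adjusted p = 0.0078) between groups that did not overlap. The call at T6 was lost without any 1 of the DMSO replicates, without replicate 1, 2 or 3 of STM2457 and under scaling by library totals, with differences of 0.75 to 0.86. In DMSO, Exosc3 varied strongly between time points, from a group mean of 20.2 CPM to one of 45.5 CPM, and its difference between treatments ranged from -0.51 to 0.81. Exosc1, Exosc2, Exosc5 and Exosc7 passed at none of the 9 conditions. Exosc5 had its largest difference at T6 (-0.56 ± 0.18, adjusted p = 0.053).

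Counted over the 9 conditions, the subunits gave 6 calls of 81 comparisons: 0 without s4U and at T0, T1, T2, T3 and T4, 2 at T5, 2 at T6 and 2 at T7. Of all genes, 2.58% were called without s4U, and 1.68, 1.53, 8.18, 1.61, 1.30, 4.45, 2.34 and 5.41% at T0 to T7 in that order. At T2, with the highest percentage, no subunit was called, although 6 of 9 had an unadjusted p under 0.05. At an unadjusted p under 0.05 the subunits numbered 5 of 9 without s4U, 3 at T0, 1 at T1, 2 at T3 and 3 at T4. Of the 12659 genes tested, 2557 were under this same cut without s4U, 2033 at T0 and 1692 at T1. The number was 4012 at T2, 1807 at T3 and 1744 at T4. DESeq2, the other tool run, gave 9 calls in all over the 9 conditions. The percentages of all genes above are those of edgeR, so this count has no background of its own beside it.

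**Figure D3:**
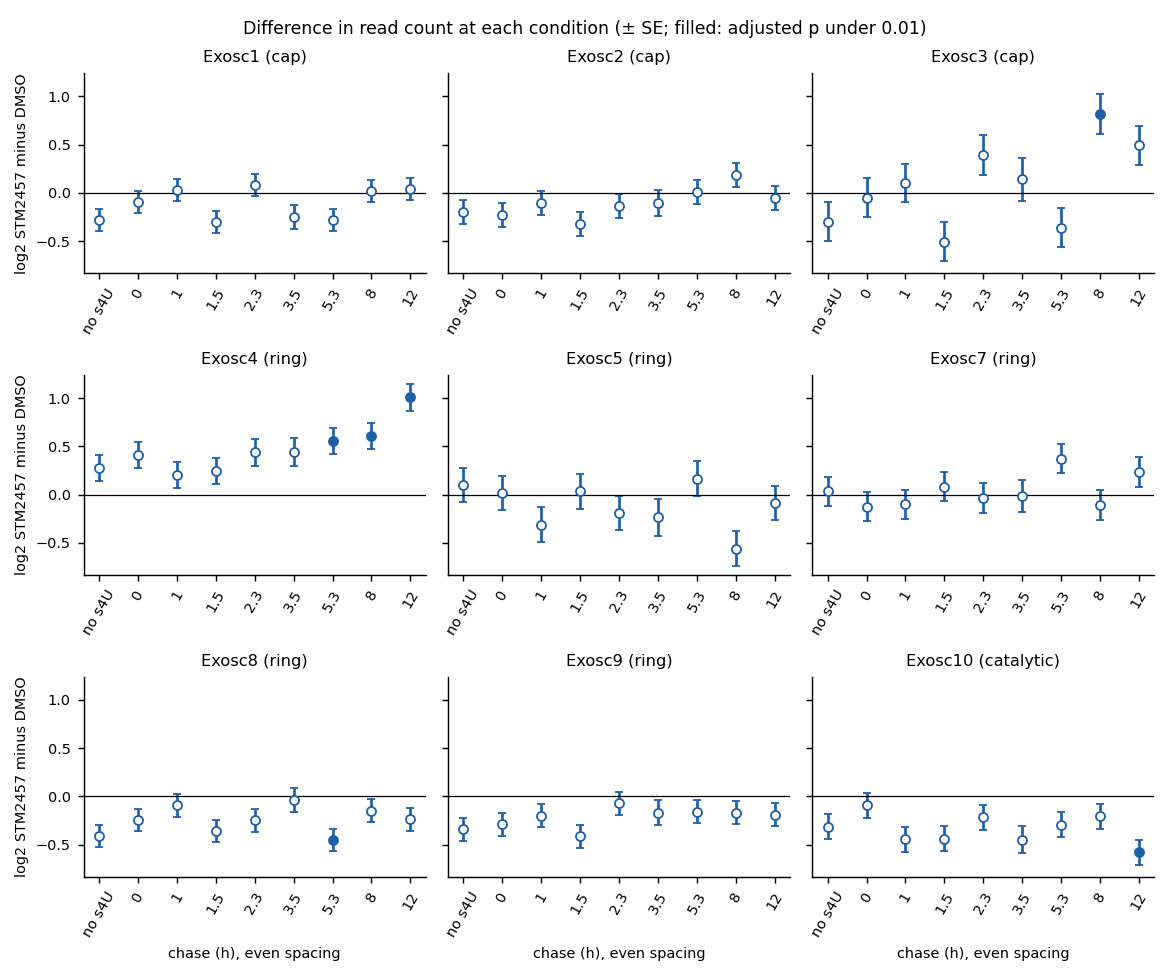
Log2 difference in read count, STM2457 minus DMSO, for each subunit in each condition. The horizontal axis gives no s4U and the hours of chase, evenly spaced. Points are edgeR estimates, bars 1 SE, filled points have an adjusted p under 0.01. Exosc4 lies above 0 throughout and reaches 1.01 at 12 h, while Exosc8, Exosc9 and Exosc10 lie below 0 throughout.

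The second question was whether levels changed along the chase itself. In DMSO, the 3 cap subunits fell from T0 to T7 and no other subunit passed the threshold (13% of all genes did). The fall was not confined to the cap: 8 of the 9 subunits had a negative difference, with a median of -0.34. At an unadjusted p under 0.05 (edgeR) there were 6 of the 9, beside 4354 of the 12659 genes tested. The ring subunits Exosc4, Exosc7 and Exosc9 had -0.37, -0.34 and -0.28 (adjusted p = 0.044, 0.098 and 0.079). The share of all genes with a negative difference was not determined. Exosc1 went from 151, 152, 127 and 135 CPM at T0 to 119, 97.7, 126 and 90.3 CPM at T7, and fell by 0.52 ± 0.11 on the log2 scale (adjusted p = 0.00035). Exosc3 went from 42.7, 23.03, 29.4 and 32.4 CPM to 21.8, 19.8, 17.6 and 21.9 CPM, and fell by 0.79 ± 0.20 (adjusted p = 0.0029). Exosc2 went from 468, 454, 385 and 411 CPM to 322, 295, 305 and 272 CPM, and fell by 0.66 ± 0.12 (adjusted p = 3.9e-05). For the 3 cap subunits the T7 libraries lay below every T0 library, narrowly so for Exosc1 (126 against 127 CPM) and Exosc3 (21.9 against 23.03 CPM). The share of all genes that separated in this way was not determined. Exosc1 was not called without replicate 2 of DMSO (-0.46), and Exosc3 was not called without replicate 1 (-0.65) or 3 (-0.76) of DMSO. The fall of Exosc2 rested on reads that mapped to several places: without them its difference was -0.15 and was not called. Changes along the chase depended on scaling: the median difference of all genes was 0.04 under TMM scaling and 0.18 when counts were scaled by library totals alone, as CPM are. With library totals Exosc1 (-0.39) and Exosc3 (-0.65) were no longer called, and of the genes called 64.7% were higher at T7, against 37.1% under TMM.

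With STM2457 the same comparison called Exosc2 alone (4.72% of all genes, of which 35.8% were higher at T7, against 69.7% with library totals, where the median moved from -0.001 to 0.118). Exosc2 went from 375, 361, 390 and 315 CPM to 260, 300, 271 and 283 CPM and fell by 0.49 ± 0.12 (adjusted p = 0.0057). This call too was lost without the multimapping reads (-0.14), with scaling by library totals (-0.37), and without replicate 1, 2 or 3 of STM2457 (-0.53 to -0.41). Exosc1 and Exosc10 missed the threshold, with differences of -0.38 ± 0.11 (adjusted p = 0.019) and -0.46 ± 0.13 (adjusted p = 0.013). Exosc4 was the subunit with the largest positive value, 0.23 ± 0.13 (adjusted p = 0.31). A difference between treatments in these changes was not shown for any subunit, as given above.

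Another comparison set T0 against the libraries without s4U. T0 minus no s4U called 0 of 9 in DMSO (0.513% of all genes) and 0 of 9 in STM2457 (0.521%) with edgeR. At an unadjusted p under 0.05 there was 1 subunit in each, Exosc8 in DMSO (-0.35 ± 0.12, adjusted p = 0.14) and Exosc2 in STM2457 (-0.27 ± 0.12, adjusted p = 0.34). Of the 12659 genes tested, 1445 were under this cut in DMSO and 1578 in STM2457. DESeq2 also called 0 of 9 in both treatments. Of all genes called, 58.5% were higher at T0 in DMSO and 51.5% in STM2457, or 75% and 64.6% with library totals.

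The subunits also differed in how their levels ran across the 18 group means of log2 CPM, as a description over groups that share libraries and depth. Exosc1 and Exosc9 were most alike (Pearson r = 0.79), followed by Exosc1 with Exosc2 (r = 0.74). Exosc4 with Exosc10 (r = -0.73) and Exosc3 with Exosc5 (r = -0.70) ran in opposite directions. The mean of the 9 subunits ran most like Snrpe (r = 0.94), Sub1 (0.92), Pdcd5 (0.92), Eloc (0.92) and Nhp2 (0.91), the 5 highest of 12650 other genes over the 18 groups.

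Turnover was read from the T-to-C conversion rate, the share of sequenced T positions that read as C because the alkylated s4U pairs with G. A half-life is the time in which this rate, after subtraction of the rate in libraries without s4U, falls by 50% during the chase. At T0 the mean background-subtracted rate of the subunits ranged from 0.650% (Exosc2) to 1.67% (Exosc7) in DMSO and from 0.646% to 1.43% in STM2457. No subunit passed a test of this rate between treatments, and the lowest two-sided exact permutation p was 0.14, for Exosc7 (1.67% ± 0.18 in DMSO and 1.43% ± 0.20 in STM2457, SD, n = 4), where 4 libraries against 4 can reach 0.029. Exosc9 had a background of 1.59% in DMSO and 1.45% in STM2457 without any s4U, against at most 0.18% for the other subunits. Its rates at T0 before subtraction were 2.36, 2.54, 2.29 and 2.56% in DMSO, so that most of the signal was also there without the label and its decay values are the least reliable of the 9.

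All 9 subunits gave a half-life that passed the filters in both treatments, which 7408 transcripts did in all. From rates averaged over replicates, the DMSO half-lives were 2.82 h for Exosc1, 3.06 h for Exosc4, 3.20 h for Exosc10, 3.37 h for Exosc7, 3.45 h for Exosc9, 3.68 h for Exosc2, 4.23 h for Exosc8, 5.16 h for Exosc5 and 5.39 h for Exosc3. The corresponding STM2457 half-lives were 2.75, 3.49, 3.02, 3.42, 3.78, 3.96, 3.77, 5.75 and 3.88 h. Neighbours in this order lay closer together than the spread of the replicate series described next. Half-lives of the subunits had a median of 3.45 h with DMSO and of 3.77 h with STM2457, beside 3.19 and 3.45 h over all transcripts, and 5 of the 9 subunits had the longer value in STM2457, as did 56.7% of all transcripts. That count ran from 2 to 6 over the alternative settings, and the sign of the ratio turned in at least 1 of 14 settings for each subunit. For Exosc4 the log2 ratio was 0.19, with -0.20 without replicate 3 of DMSO and 0.84 without replicate 3 of STM2457.

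**Figure D4:**
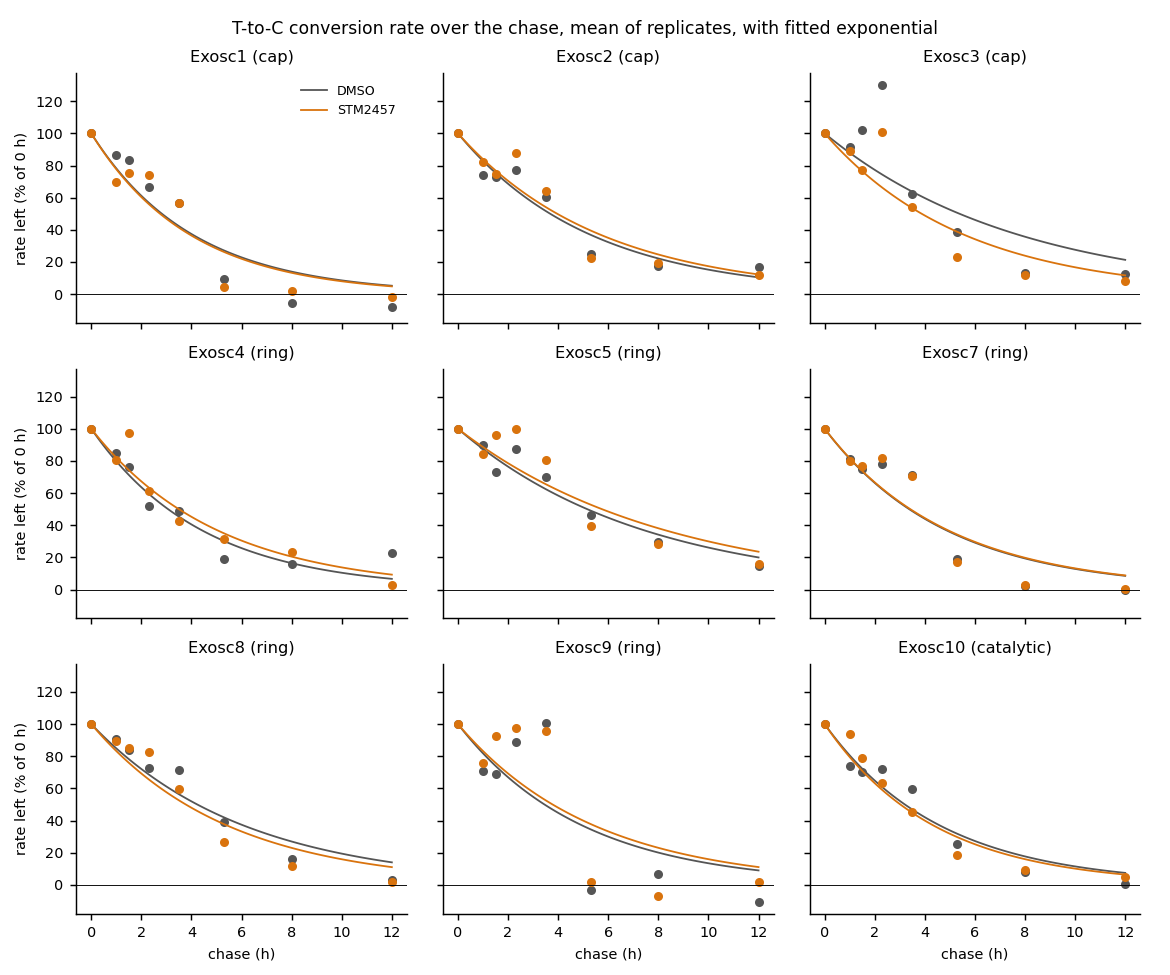
T-to-C conversion rate left during the chase for each subunit, as a percentage of the rate at 0 h after background subtraction. Points are means over replicates (DMSO grey, STM2457 orange) and lines are fitted exponentials. For Exosc10 in DMSO 25.6% was left at 5.3 h and 0.835% at 12 h, and the curves of the treatments lie close together for most subunits.

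The points did not follow the exponential evenly. At 3.5 h, 8 of 9 subunits lay above their fitted curve in each treatment, and at 5.3 h all 9 lay below it in both. A step at this place was also present in the rate over all genes of a library, before background subtraction. That rate was 0.916 to 1.04% in the libraries at 3.5 h and 0.496 to 0.572% in those at 5.3 h. Whether the subunits depart from other transcripts in this was not tested. Exosc7 had 71.0% left at 3.5 h and 18.8% at 5.3 h in DMSO, and 70.5% and 17.03% in STM2457. Exosc5 had the shallowest course, with 46.5% left at 5.3 h in DMSO and 39.7% in STM2457. For Exosc9 the rate stood at 101% at 3.5 h and at -3.2% at 5.3 h in DMSO, a drop that its fitted curve does not follow.

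Fitted to each replicate series on its own, which joins the libraries of 1 treatment with the same number, the half-lives spread widely. For Exosc4 they were 3.17, 6.01, 1.69 and 3.71 h in DMSO and 5.28, 3.57, 1.71 and 6.17 h in STM2457, overlapping over nearly their whole range (exact permutation p = 0.77, two-sided). For Exosc10 they were 3.37, 5.19, 2.42 and 2.62 h in DMSO and 3.09, 3.14, 3.10 and 2.89 h in STM2457, where the STM2457 series lay close together within the DMSO range (exact permutation p = 0.89). Exosc8 had 6.02, 2.73, 4.36 and 4.78 h in DMSO and 5.60, 3.95, 2.60 and 3.77 h in STM2457 (exact permutation p = 0.63). The series of the treatments overlapped for all 9 subunits, with exact permutation p-values of 0.63 to 0.94.

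The limma test on these series called 0 of 9 subunits (threshold 0.05 after adjustment), as it did 0% of the 5772 transcripts, while 405 transcripts and no subunit had an unadjusted p under 0.05. Its 95% interval for the ratio of STM2457 to DMSO half-life of Exosc4 ran from 0.538 to 2.40, and that of Exosc10 from 0.612 to 1.45. The precision of these series therefore left room for changes of the size seen in the read counts. Another model took the slope of the log2 rate on chase time up to 5.3 h in single libraries, without background subtraction. In it, the slope of Exosc10 differed between treatments by -0.14 ± 0.06 log2 units per h (limma, adjusted p = 0.59). The difference was -0.10 ± 0.05 for Exosc8 (adjusted p = 0.62) and 0.11 ± 0.08 for Exosc4 (adjusted p = 0.76). A negative difference is a steeper fall of the rate in STM2457 than in DMSO. Of the 9 subunits 8 had a negative difference, and none passed the threshold. By contrast, 5 of the 9 had the longer fitted half-life in STM2457 after background subtraction, and 4 of the 9 without it. Exosc8 and Exosc10 had an unadjusted p under 0.05 in this model, as did 920 of its 11424 transcripts. The share of all transcripts with a negative difference was not determined.

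**Figure D5:**
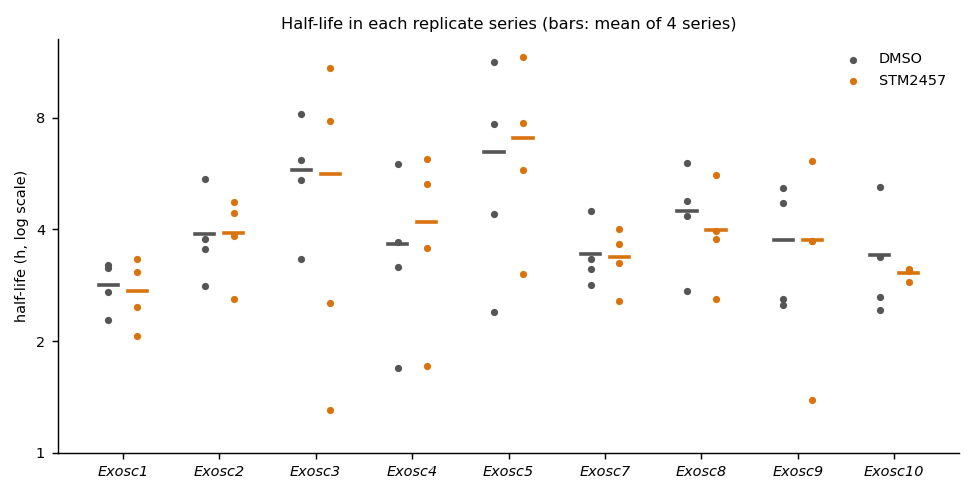
Half-life of each subunit in each replicate series (points, hours on a log2 axis; DMSO grey, STM2457 orange) with the mean of 4 series as a bar. The Exosc4 series run from 1.69 to 6.01 h in DMSO and from 1.71 to 6.17 h in STM2457, and the treatments overlap for every subunit.

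Of 20 genes known to work with the exosome, 18 had a row, and 10 of these were called in the averaged comparison, 4 higher and 6 lower, beside the 26.5% of all genes. Neither processive nuclease was called. Dis3, at the base of the barrel, had a difference of 0.03 ± 0.04 (adjusted p = 0.52) and Dis3l, its cytoplasmic relative, 0.04 ± 0.09 (adjusted p = 0.80). The cofactors that join Exosc10 in the nucleus went in opposite directions: Mphosph6 rose by 0.35 ± 0.07 (adjusted p = 2.9e-05) and C1d fell by 0.17 ± 0.05 (adjusted p = 0.0038). Of the nuclear exosome targeting complex, Rbm7 rose by 0.36 ± 0.06 (adjusted p = 3.5e-06) and Zcchc8 rose by 0.29 ± 0.08 (adjusted p = 0.0043), while their helicase Mtrex fell by 0.21 ± 0.05 (adjusted p = 0.00017). Among the poly(A) polymerases that tag nuclear substrates, Tent4a fell by 0.42 ± 0.10 (adjusted p = 0.00028) and Tent4b rose by 0.17 ± 0.05 (adjusted p = 0.0091), the latter with 36.8% multimapping reads and a call that was lost in 10 of 16 alternative settings. Ncbp1, the large cap-binding subunit, fell by 0.24 ± 0.04 (adjusted p = 2.4e-07). On the cytoplasmic side, the Ski helicase Skiv2l fell by 0.22 ± 0.06 (adjusted p = 0.0047) and Hbs1l fell by 0.33 ± 0.05 (adjusted p = 5.8e-07). From T0 to T7 in DMSO, 2 of the 18 were called, where 13% of all genes were. They were C1d with a fall of 0.66 ± 0.13 (adjusted p = 0.00014) and the small cap-binding subunit Ncbp2 with a fall of 0.83 ± 0.13 (adjusted p = 2.2e-06). In STM2457, where 4.72% of all genes were called, none of the 18 was called by edgeR. At an unadjusted p under 0.05 there were 6 of them, beside 2888 of the 12659 genes tested. Without T2 and T5, Rbm7, Tent4b, Ncbp1 and Hbs1l stayed called in the average and the other 6 did not. With 1 replicate left out, Zcchc8 was not called without replicate 2 or 3 of DMSO or 3 or 4 of STM2457 (0.21 to 0.28), and Skiv2l was not called without replicate 2 of DMSO or 1, 2 or 3 of STM2457 (-0.22 to -0.18). C1d was not called without replicate 1 or 3 of DMSO or 3 of STM2457 (-0.16 to -0.14). At single time points, 3 of the 18 were called at T2 (8.18% of all genes), 1 at T5 (4.45%) and 2 at T7 (5.41%). The 2 at T7, named after their values were seen, were Zcchc7, which fell by 0.84 ± 0.22 (adjusted p = 0.0060), and Ncbp2, which rose by 0.51 ± 0.13 (adjusted p = 0.0071).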

How the data were processed

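Per the labels, 71 libraries of mESC RNA were made with a 3′ end kit (QuantSeq FWD) after iodoacetamide treatment. The authors mapped and counted the reads with SLAM-DUNK in 3′ UTR windows on GRCm38 and deposited, for each gene, read counts, multimapping reads, T coverage, conversions and the conversion rate as a fraction. Strand handling of the counts is not given in the sources used here. The chase hours come from the study's methods, as the labels give only T0 to T7.

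Read counts of all 71 libraries were fitted with edgeR 4.0.16 (quasi-likelihood, TMM, filterByExpr, 18 group means, 12659 genes), with Benjamini-Hochberg adjustment over all genes and a threshold of 0.01. Half-lives were fitted as exponentials fixed at 1 at 0 h (T coverage above 100, 0.67 to 18 h, residual standard error at most 0.3), and limma 3.58.1 compared 4 series per treatment at 0.05. The STM2457 series with replicate number 4 lacks 3.5 h. DESeq2 1.42.0 was an alternative. Same-numbered libraries of the treatments did not deviate together (35 pairs, mean r = 0.01, 1 pair above 0.1), so no pairing was used. No 2 replicates held identical values (105 pairs). The fits were tested on simulated data. All subunits are named, and of the associated genes Dis3, Dis3l and those called in the averaged comparison or in T7 minus T0. The genes and lists were chosen with earlier results of these data known.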

Additional observations from a re-analysis of the deposited data

Results flagged for a closer look

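For Exosc4 the slope of the difference between treatments on chase time was 0.057 log2 units per h (edgeR, adjusted p = 0.0013), from 0.41 at T0 to 1.01 at T7. This contrast was chosen after the values had been seen. Its call was lost without replicate 4 of DMSO or replicate 1 of STM2457. The comparison of T7 minus T0 between treatments did not pass the threshold (edgeR, adjusted p = 0.084).

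Within groups of 4 libraries or series, 189 groups were examined for a value far from the other 3, and 9 were found, where about 9.45 would be by chance alone. In CPM, Exosc2 had 390 in replicate 2 of DMSO at T3 (others 339 to 342), Exosc3 had 20.1 in replicate 4 of STM2457 at T5 (others 30.9 to 32.7), and Exosc9 had 68.2 in replicate 1 of DMSO at T1 (others 95.01 to 99.97). Exosc4 had 37.0 in replicate 4 of DMSO at T7 (others 44.6 to 45.4) and 80.3 in replicate 4 of STM2457 without s4U (others 58.6 to 60.9). Exosc5 had 71.5 in replicate 2 of DMSO at T5 (others 70.1 to 70.2), a narrow group, and 114 in replicate 3 of DMSO at T6 (others 86.2 to 89.5). The conversion rate at T0 was 1.94% for Exosc4 in replicate 3 of STM2457 (others 0.874 to 1.00%) and 2.07% for Exosc9 in replicate 1 of STM2457 (others 2.63 to 2.73%).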

How the results depend on the processing

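The averaged comparison called 4 subunits, 4 in every fit that left out 1 replicate, and 5 without T2 and T5. The count over the 9 conditions was 6. It was 12 at an adjusted p under 0.05, 7 with the replicate block, and 1 to 5 with 1 replicate left out. The shares of all genes called in these alternatives are not given here, so these counts are not set against a background. T7 minus T0 in DMSO called 3 subunits, 1 with library totals alone, 3 with the replicate block and 2 to 3 with 1 replicate left out. T7 minus T0 in STM2457 called 1, 0 with library totals alone and without multimapping reads, 2 with only the groups compared and with DESeq2, 3 at an adjusted p under 0.05, 1 with the replicate block and 0 to 2 with 1 replicate left out. The replicate block gave 4 subunits in the average and 0 for half-lives, for the rate at T0, for T0 against no s4U and for the difference of T7 minus T0 between treatments, counts equal to those without it. Of 35 DMSO libraries with a same-numbered partner, 9 correlated best with it, and the mean r was 0.01 (-0.077 to 0.27). Fitting only the groups compared was not run for the averaged comparison.

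The averaged difference of Exosc7, near 0, was 0.04; it ran from -0.015 to 0.071 with 1 replicate left out, below 0 without replicate 3 of STM2457 alone, and was -0.024 without T2 and T5. Leaving out T2 and T5 was chosen after the data were seen. Half-life ratios moved in all 126 recomputed values by less than the larger of the treatments' SDs over series, which is wide (for Exosc10 0.49 in DMSO and 0.05 in STM2457, log2), and for each of the 9 subunits the sign turned in at least 1 setting. For the lost calls the cause was not tested, other than that fewer libraries were fitted where a replicate was left out. Depth limits Exosc3 most, with as few as 96 reads in a library and 28 to 81 conversions in T0 libraries.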
